A study of Mus musculus with 28 samples.

Results

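The comparison set wild-type (WT) monocyte-derived cells recovered from the undisturbed small intestine against WT monocytes of the bone marrow. Its samples were chosen from the labels and not from measured values: 5 samples of the intestine and 3 of the marrow, or 8 of the 28 samples in the study. Of the 72 targets on the probe panel, 58 had values in both groups, and 55 of these were not housekeeping genes. The intestinal samples came from C57BL/6 WT donors whose monocytes had been transferred into CCR2-/- recipients. CCR2-/- mice have few blood monocytes of their own, because monocytes need this chemokine receptor to leave the marrow. These recipients had no surgery, and 100 donor-derived cells were sorted from each small intestine at day 1 after transfer. They are called control cells here, and their samples control mouse 1 to 5. The marrow samples were primary monocytes of C57BL/6 WT mice that were neither operated on nor given a transfer, and are called marrow mouse 1 to 3. The gate of the sort, the number of marrow cells and whether donors were pooled are not stated in the labels. These groups therefore differed in tissue, in transfer, in the CCR2 genotype of the host and possibly in cell number, and the contributions of these cannot be told apart.

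Monocytes that leave the blood for the healthy gut wall are known to lose monocyte features and to acquire those of resident macrophages. In mice this course runs from cells rich in Ly6C and CCR2, through cells that have gained major histocompatibility complex (MHC) class II, to macrophages rich in the fractalkine receptor CX3CR1, which make interleukin-10 and take up bacteria without much inflammatory output. Monocytes can also become dendritic-like cells that carry CD11c and present antigen. The panel reads points along this course, together with cytokine, chemokine, sensor and repair genes.

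The values are counts of NanoString nCounter barcodes. In this assay a pair of probes binds each target and 1 member of the pair carries a fluorescent barcode that is counted. Here the cDNA was first amplified with target-specific primers, so a count is not a count of original RNA molecules. A normalised count is a count divided by the sample's housekeeping factor. That factor is the geometric mean of 3 housekeeping genes, Actb, Gapdh and Rpl19, relative to its geometric average over the 28 samples. The 55 genes were tested by edgeR's two-sided quasi-likelihood method at a threshold of 0.05, adjusted after Benjamini and Hochberg. The p-values given as adjusted p come from that test. Log2 fold changes are control cells minus marrow monocytes, each with its standard error (SE), and mean levels carry the standard deviation (SD) between mice. In bulk samples like these, fewer cells of a type and less RNA per cell cannot be told apart.

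Total gene counts ran from 1095550 to 1456461 in control cells and from 1205501 to 1625959 in marrow monocytes. The background limit, the mean of 5 negative control probes plus 2 SD, ran from 26.3 to 46.7 counts and from 34.2 to 54.0 counts. These limits cover the level of the negative control probes and its spread between those probes, and no other error. The counts have no molecular identifiers. The deposited gene values of control mouse 3 and 4 and marrow mouse 2 and 3 were whole counts times about 4/3, and this multiplier was divided out. The panel held 0 markers of lymphocytes, granulocytes, epithelium or endothelium from the list used, so the purity of the sorts was not tested. Monocyte genes were present in both groups: Ccr2, Csf1r, Spi1 and Fcgr1 lay above background in every one of the 8 samples.

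Marrow mouse 1 and marrow mouse 2 stood apart from the others of their group. Marrow mouse 1 had 12809 raw counts of Rpl19, a ribosomal protein gene, against 3828 and 3206 in marrow mouse 2 and 3 and 2359 to 3496 in control cells. Raw Rpl19 counts differed between the groups by a two-sided exact permutation test (p = 0.0357, where 56 arrangements allow 0.0179 at the smallest), while those of the positive control probes overlapped (exact p = 0.571). After scaling, Rpl19 stood at 8101, 3270 and 2738 normalised counts in marrow mouse 1 to 3 and at 3057, 2666, 2387, 2969 and 3050 in control mouse 1 to 5. Actb, a cytoskeletal actin, stood at 148095, 172466, 189801, 162234 and 173488 normalised counts in control cells and at 91167, 166512 and 157706 in marrow. Gapdh, a glycolytic enzyme, stood at 99981, 98469, 99929, 93989 and 85556 in control cells and at 61299, 83142 and 104854 in marrow. The housekeeping factor, by which counts are divided, was 1.58 in marrow mouse 1 and 1.17 in both marrow mouse 2 and 3. In normalised counts, marrow mouse 2 had the highest level of the 3 marrow samples for 38 of 55 genes. Marrow mouse 1 had the lowest for 30. Its larger factor lowers all its normalised counts, and the part of the scaling in these ranks was not tested. For the genes described here, calls that ended or began without either sample are given with and without it, as are called values that moved by over 1.5-fold without marrow mouse 2.

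The promoters of 5 genes are printed because these genes carry the largest differences in each direction among those for which the promoter table used here had an entry. They are RefSeq sequences of GRCm38.p6 on the strand of the gene, 250 bases before to 50 after the transcription start. Capitals mark matches, on either strand, to any of 4 motifs searched: the NF-kappaB motif GGGANNNNCC, the STAT motif TTCNNNGAA, the PU.1 motif GAGGAA and the AP-1 motif TGANTCA. Itgax lies at chr7:128129300-128129599 on the plus strand, and Il1a and Il1b lie at chr2:129309923-129310222 and chr2:129371090-129371389 on the minus strand. Cxcl9 lies at chr5:92328030-92328329 and Chil3 at chr3:106167515-106167814, both on the minus strand.
Itgax: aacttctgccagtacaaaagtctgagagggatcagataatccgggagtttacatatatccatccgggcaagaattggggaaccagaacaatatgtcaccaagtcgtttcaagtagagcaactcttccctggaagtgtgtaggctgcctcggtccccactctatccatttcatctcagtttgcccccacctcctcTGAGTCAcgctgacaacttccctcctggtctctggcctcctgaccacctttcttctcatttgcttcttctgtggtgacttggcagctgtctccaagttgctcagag
Il1a: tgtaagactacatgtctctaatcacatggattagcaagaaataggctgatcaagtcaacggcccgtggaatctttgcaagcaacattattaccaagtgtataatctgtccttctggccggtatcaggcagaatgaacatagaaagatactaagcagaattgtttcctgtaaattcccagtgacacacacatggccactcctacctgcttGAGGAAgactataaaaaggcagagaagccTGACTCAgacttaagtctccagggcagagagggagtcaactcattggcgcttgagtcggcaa
Il1b: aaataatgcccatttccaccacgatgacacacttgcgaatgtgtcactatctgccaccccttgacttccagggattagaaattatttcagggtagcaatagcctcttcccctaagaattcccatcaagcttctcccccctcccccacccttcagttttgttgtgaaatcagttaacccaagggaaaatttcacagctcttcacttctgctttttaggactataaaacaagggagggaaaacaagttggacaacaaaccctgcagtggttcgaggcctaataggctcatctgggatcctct
Cxcl9: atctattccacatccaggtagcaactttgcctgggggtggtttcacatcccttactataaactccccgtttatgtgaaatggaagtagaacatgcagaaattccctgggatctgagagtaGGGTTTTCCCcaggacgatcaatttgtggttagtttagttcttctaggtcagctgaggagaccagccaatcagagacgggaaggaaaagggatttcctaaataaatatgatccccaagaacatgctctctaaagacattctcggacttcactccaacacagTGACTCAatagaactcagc
Chil3: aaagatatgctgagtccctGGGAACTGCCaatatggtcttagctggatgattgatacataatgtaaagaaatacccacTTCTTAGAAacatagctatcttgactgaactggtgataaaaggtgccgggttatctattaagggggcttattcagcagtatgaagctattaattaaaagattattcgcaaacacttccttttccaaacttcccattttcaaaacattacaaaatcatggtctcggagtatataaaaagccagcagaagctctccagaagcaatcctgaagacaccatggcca

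These 5 windows shared no motif of the 4. An AP-1 match began 56 bases before the start in Itgax and 12 bases before it in Il1a, and at position 32 after the start in Cxcl9. Il1a also held a PU.1 match 41 bases before the start, Cxcl9 an NF-kappaB match 130 bases before it, and Chil3 an NF-kappaB match at 231 and a STAT match at 172 bases before it. Il1b held none of the 4 in this window. The promoter table had 40 promoters for 35 of the 55 tested genes, of which 13 promoters belonged to genes that were higher in control cells. The NF-kappaB motif lay in 7 of those 13, in 21 of the 40 and in 20.7% of all 32851 promoters. The AP-1 motif lay in 5 of the 13, in 9 of the 40 and in 7.81% of all promoters. The PU.1 motif lay in 2 of the 13, in 17 of the 40 and in 28.3% of all, and the STAT motif in 1, in 5 and in 8.30%. A match is a run of letters and not a site shown to be bound.

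With the housekeeping scaling, most genes that differed were higher in control cells than in marrow monocytes. Of the 55 genes, 19 passed the threshold (34.5%), with 17 higher (30.9%) and 2 lower (3.64%) in control cells. The genes with the largest rises were Itgax, Il1a, Cxcl9, Il1b, H2-Ab1 and Arg1, at log2 fold changes of 4.13 to 7.50. Chil3 was among the 2 that fell. With that scaling the groups did not overlap for 12 genes (21.8%), each higher in control cells: Itgax, Il1a, Cxcl9, Il1b, H2-Ab1, Arg1, Cd14, Ccl7, Ccl2, Cd80, Cxcl1 and Tgfb1. Of these, Cxcl1 did not pass the threshold. As shares of a sample's total gene count, the groups overlapped for Cxcl9, Cd80, Cxcl1 and Tgfb1, so those separations rest on the scaling.

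The zero point of the comparison rests on the scaling. The median log2 fold change of all 55 genes was 0.61, so a gene at that value sat in the middle of the panel. It was -0.03 with edgeR's TMM scaling, 0.24 with total-count scaling, -0.26 with the size factors of DESeq2, 0.07 in the authors' normalised values and 0.28 when Rpl19 was left out of the housekeeping set. The split of calls moved with it, from 17 higher and 2 lower to 11 and 5 (TMM), 13 and 4 (total counts), 13 and 13 (DESeq2's size factors) and 6 and 2 (the authors' values). Itgax, Il1a, Il1b, Cxcl9, H2-Ab1 and Cd14 stayed higher and Chil3 stayed lower past the threshold under all 8 alternative scalings. The call held under 7 of the 8 for Ccl2, Ccl7 and Arg1, 6 for Vegfa, 5 for Cd86, 4 for Il10 and Cd80, and 2 for Tgfb1, Nfkb2, Nod2 and Ccl22. Some genes that did not pass with the housekeeping scaling were lower past the threshold under others. Card9, Stat6 and Itgb7 were so with TMM and with DESeq2's size factors, and Card9 and Ccl8 with total counts. Ccl8, Cx3cr1, Adgre1, Ccr9, Tlr8, Ccr2, Tlr2 and Irf5 were so with DESeq2's size factors. The plot of calls by scaling shows these splits.

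**Figure D1:**
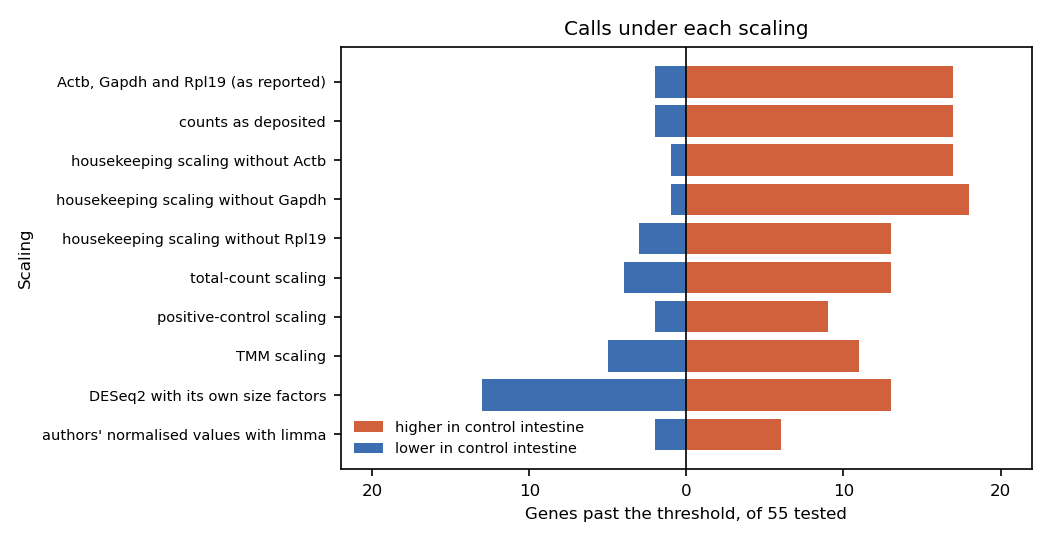
Number of the 55 tested genes past the threshold (x axis) under each scaling (y axis), with genes higher in control cells to the right of 0 and genes lower to the left. The housekeeping scaling gave 17 higher and 2 lower, and DESeq2's own size factors gave 13 and 13.

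Antigen presentation and dendritic-type genes held several of the largest differences. Itgax (transcript NM_021334.2, target positions 328 to 427) encodes the integrin CD11c, carried by dendritic cells and by many gut macrophages. It stood at 5023, 7794, 5594, 5848 and 2504 normalised counts in control mouse 1 to 5 and at 43.6, 23.9 and 20.5 in marrow mouse 1 to 3. Every control sample lay far above every marrow sample. The mean was 5353 ± 1903 (SD, n = 5) against 29.3 ± 12.5 (n = 3), a difference of 7.50 log2 units (SE 1.07, adjusted p = 3.07e-06). Itgax was above background in only 1 of 3 marrow samples, and with the marrow samples set no lower than their background limit the difference was 120.7-fold.

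H2-Ab1 (NM_207105.2, positions 165 to 264) encodes the beta chain of the MHC class II molecule I-A, which presents peptides to helper T cells. Its levels were 134856, 104141, 87587, 91794 and 159722 normalised counts in control cells and 2695, 9972 and 227.1 in marrow. The groups did not overlap, and the control samples lay within a narrow range while the marrow samples were widely spread. In log2 units it was higher by 4.75 (SE 1.12, adjusted p = 0.00224), and without marrow mouse 2 by 6.31 (adjusted p = 0.00104). The costimulatory genes Cd86 and Cd80, whose products deliver the second signal to T cells, rose less. Cd86 stood at 9312, 6798, 17308, 13855 and 2909 in control cells and at 1395, 4633 and 3987 in marrow, where control mouse 5 lay among the marrow samples. The fitted rise was 1.59 log2 units (SE 0.54, adjusted p = 0.0255). After scaling, Cd80 ranged from 7613 to 20611 in control cells and from 2316 to 6159 in marrow, with no overlap. Its log2 difference was 1.42 (SE 0.35, adjusted p = 0.00358). The call for Cd80 ended with TMM (0.82, adjusted p = 0.134), DESeq2's size factors (0.52, adjusted p = 0.41), positive-control scaling (0.91) and the authors' values (0.84), and when only the 8 samples were fitted (adjusted p = 0.104).

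All 3 genes of the list for antigen presentation and costimulation were thus higher, with a median log2 fold change of 1.59 against 0.61 for all genes. The shares over all 55 genes, beside which each list is read, were 30.9% higher and 3.64% lower. The list of dendritic cell markers had values for 4 of its 6 members on the panel, since Zbtb46 and Flt3 were blank in every sample. Itgax and H2-Ab1 rose, and the other two did not pass: Ccr7, the receptor that guides cells to lymph nodes, had a log2 fold change of 1.33 (95% interval 0.07 to 2.60, adjusted p = 0.0947), and the transcription factor Irf4 had 0.07 (-0.91 to 1.06). Ccr7 passed without marrow mouse 2, at 1.81 (adjusted p = 0.0479), with the replicate block over all samples, at 1.58 (adjusted p = 0.0321), and by DESeq2 with the housekeeping scaling (adjusted p = 0.0492). The median of the 4 was 3.04. Both genes that rose are also on the macrophage list, so these lists do not separate the cell types.

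**Figure D2:**
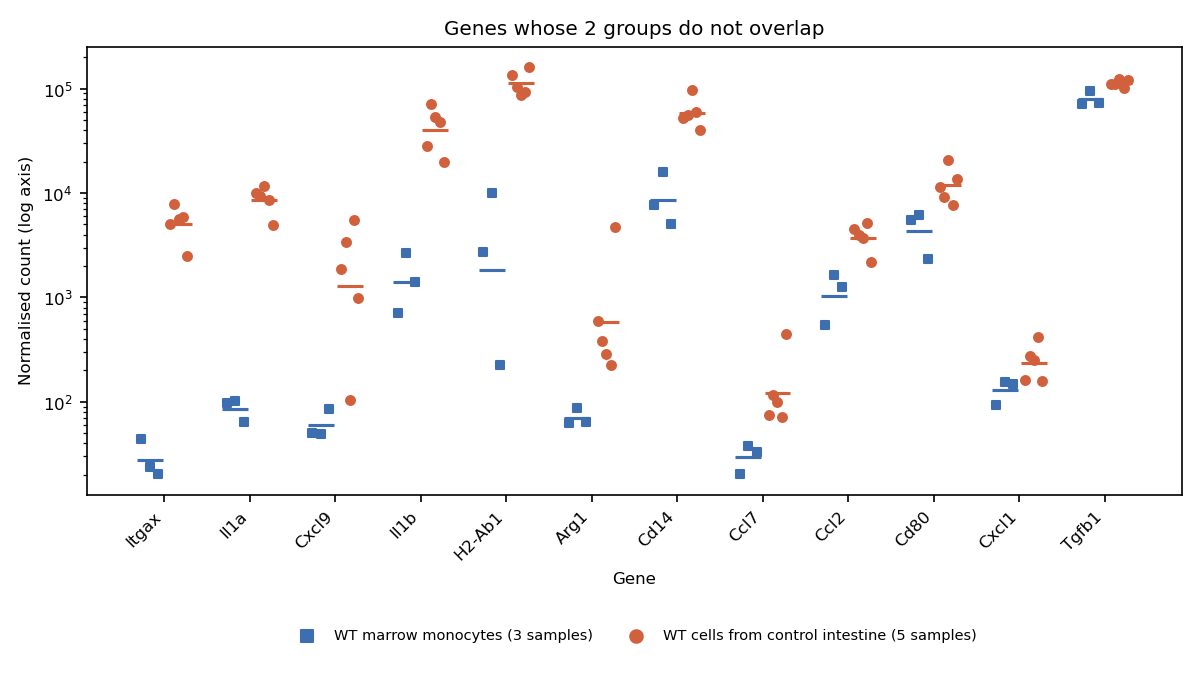
Normalised counts per sample (y axis, log scale) for the 12 genes whose groups did not overlap (x axis), with a point for each mouse and a bar at the geometric mean of each group. The control samples of Itgax lie between 2504 and 7794 and the marrow samples between 20.5 and 43.6.

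Inflammatory cytokines split into interleukin-1 genes that rose and others that did not pass. Il1a (NM_010554.4, positions 226 to 325) encodes interleukin-1 alpha, a cytokine that also acts as an alarm signal of damaged cells. It stood at 9956, 9309, 11718, 8502 and 4899 normalised counts in control cells and at 96.8, 100.8 and 64.0 in marrow. The marrow values were close to one another, and the groups were far apart, with means of 8877 ± 2519 (SD, n = 5) and 87.2 ± 20.2 (n = 3). It rose by 6.67 log2 units (SE 0.58, adjusted p = 6.38e-10).

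Il1b (NM_008361.3, positions 1121 to 1220), the secreted interleukin-1 of activated myeloid cells, stood at 28336, 71535, 53599, 48320 and 19996 in control cells and at 712.7, 2682 and 1416 in marrow. The lowest control sample was control mouse 5, and it still lay above every marrow sample. The fitted log2 difference was 4.79 (SE 0.61, adjusted p = 7.88e-07), and 5.38 without marrow mouse 2. Tnf, tumour necrosis factor, ranged from 7469 to 42326 in control cells and from 4895 to 24073 in marrow, and its log2 fold change of 0.66 (95% interval -0.54 to 1.86, adjusted p = 0.418) did not pass. Within the samples multiplied by about 4/3, Tnf passed as higher, at 1.91 (adjusted p = 0.0147). Il23a, a subunit of interleukin-23, had a log2 fold change of 0.25 (-1.22 to 1.72). Il6 lay near background, above it in 4 of 5 control and 1 of 3 marrow samples, and its fitted log2 fold change was 0.97 (-0.73 to 2.66). Of the 5 cytokine genes with values, 2 were higher (against 30.9% of all 55 genes), and the median was 0.97. Il1a and Il1b kept their calls under all 28 alternatives run, 1 of which had a single marrow sample.

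Among the chemokine ligands 4 of 8 were higher (against 30.9% of all 55 genes) and none lower, with a median log2 fold change of 1.99. Cxcl9 (NM_008599.2, positions 41 to 140), an interferon-induced ligand that attracts T cells, stood at 1891, 3376, 104.0, 5545 and 982.6 in control cells and at 50.0, 48.7 and 86.2 in marrow. Control mouse 3 lay barely above the marrow samples. The 5 control samples spanned 53.3-fold, the widest range in that group among the 55 genes tested. The fit put the rise at 5.27 log2 units (SE 1.40, adjusted p = 0.00523).

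Ccl2 and Ccl7 encode ligands of CCR2 that recruit monocytes. Ccl2 stood at 4498, 3949, 3731, 5124 and 2160 in control cells and at 543.9, 1638 and 1271 in marrow, with no overlap. In log2 units it was higher by 1.76 (SE 0.40, adjusted p = 0.00166). Ccl7 stood at 74.6, 115.8, 99.0, 71.3 and 442.2 in control cells and at 20.2, 37.6 and 33.3 in marrow, where it was above background in 0 of 3 samples. Its fitted log2 fold change was 2.40 (SE 0.63, adjusted p = 0.00523). With the marrow samples set no lower than their background limit, the ratio of geometric means was 3.70, with control mouse 5 included. Control mouse 5 lay apart from the other four, and without it the fitted value was 1.57 (adjusted p = 0.0174).

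Ccl22, a ligand that attracts regulatory T cells, stood at 4312, 1492, 1339, 3307 and 738.2 in control cells and at 770.9, 1070 and 558.5 in marrow. Control mouse 5 lay among the marrow samples, and the log2 change of Ccl22 was 1.48 (SE 0.54, adjusted p = 0.0343). The call for Ccl22 ended without control mouse 1 or 4 or marrow mouse 1 or 3, at log2 fold changes of 1.10, 1.30, 1.46 and 1.28. The neutrophil-attracting Cxcl1 was higher after scaling in every control sample (157.7 to 413.6) than in any marrow sample (92.3 to 155.5). Its log2 fold change was 0.93 (95% interval 0.01 to 1.84, adjusted p = 0.107). Ccl8, another monocyte attractant, had -0.19 (-0.60 to 0.23).

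The interferon-induced ligands Cxcl10 and Cxcl11, which share the receptor of Cxcl9, did not pass in the main edgeR fit and passed under some alternatives. Cxcl10 stood at 45377, 33971, 19814, 7020 and 97128 in control cells and at 1188, 24319 and 771.1 in marrow. Marrow mouse 2 lay among the control samples and the other two far below. Cxcl10 had a log2 fold change of 2.21 (95% interval 0.27 to 4.16, adjusted p = 0.0705). Without marrow mouse 2 it was 5.37 and passed (adjusted p = 4.39e-04), and without control mouse 4 it was 2.49 and passed (adjusted p = 0.0471). With all samples, Cxcl10 passed with TMM (2.46, adjusted p = 0.0474) and by limma on log2 levels (3.37, adjusted p = 0.0066). By DESeq2 it passed with that method's size factors (adjusted p = 0.017) and with the housekeeping scaling (adjusted p = 0.0153). Cxcl11 stood at 850.1, 2190, 97.0, 806.8 and 1175 in control cells and at 35.4, 139.2 and 332.2 in marrow, with a log2 fold change of 2.60 (0.33 to 4.87, adjusted p = 0.0705). Cxcl11 passed by DESeq2 with that method's size factors (1.93, adjusted p = 0.0408) and with the housekeeping scaling (2.60, adjusted p = 0.0127). Irf5, an interferon regulatory factor, had a log2 fold change of 0.08 (-0.68 to 0.84). Of the 5 genes listed for the interferon response 1 was therefore higher (against 30.9% of all 55 genes), with a median of 2.21. Irf5 turned to -0.80 with DESeq2's size factors (adjusted p = 0.00134).

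**Figure D3:**
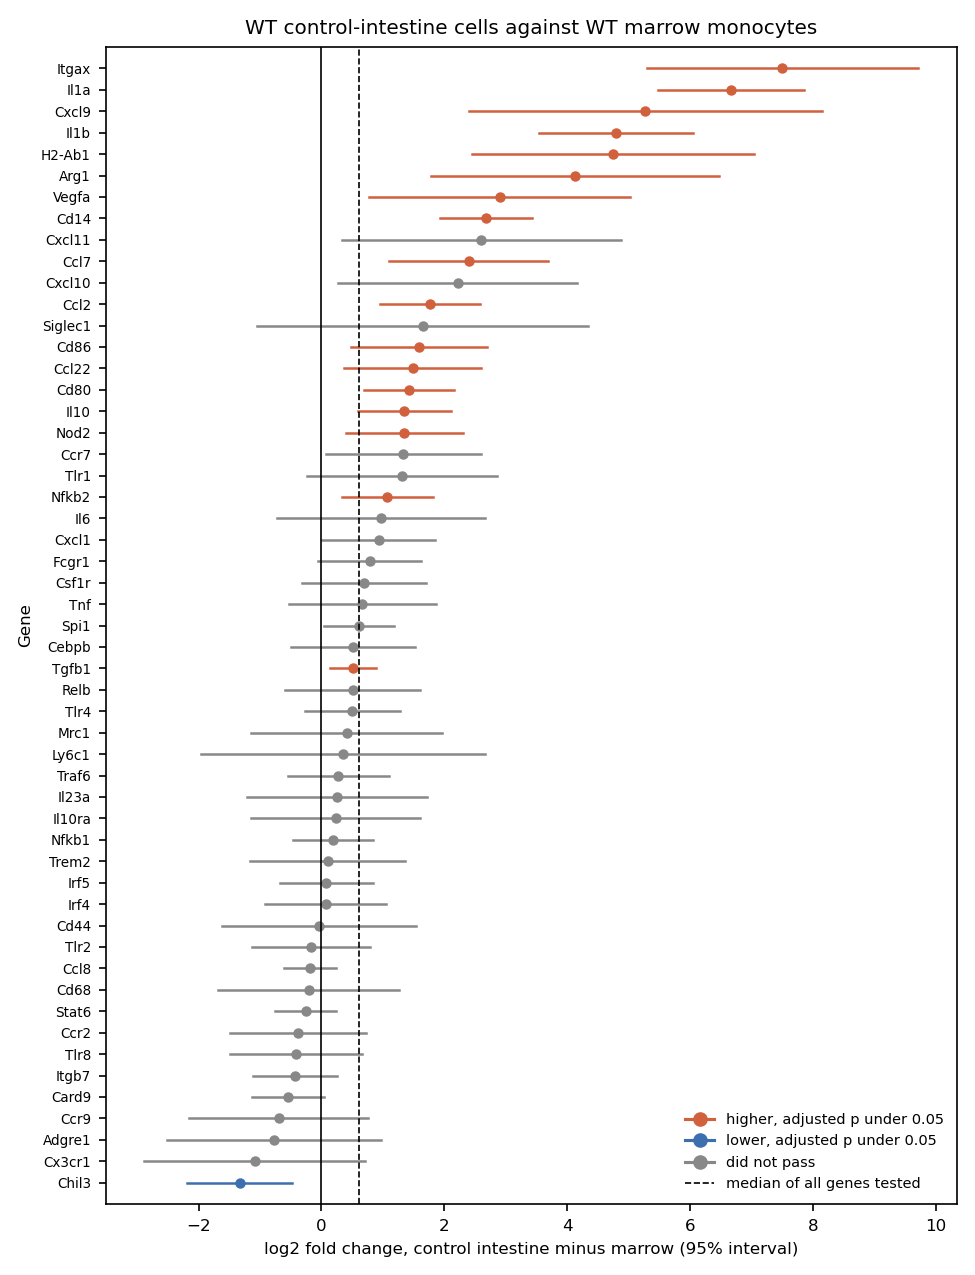
Log2 fold change of control cells minus marrow monocytes (x axis) for the genes described here (y axis, in order), with the 95% interval of the edgeR fit as a line and colour for the direction of the calls. The estimates run from -1.33 for Chil3 to 7.50 for Itgax around a panel median of 0.61.

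Monocyte identity genes did not move as a block. Of the 10 genes listed, 1 was higher, 2 were lower and 7 did not pass, with a median log2 fold change of 0.43. The shares over all 55 genes were 30.9% higher and 3.64% lower. Chil3 (NM_009892.1, positions 1197 to 1296) encodes the chitinase-like protein Ym1, abundant in Ly6C-rich marrow monocytes and close in sequence to Chil4. It stood at 144900, 63261, 64290, 54674 and 32556 in control cells and at 117451, 206475 and 218532 in marrow. Only control mouse 1 lay above the lowest marrow sample. Its log2 difference was -1.33 (SE 0.42, adjusted p = 0.0171), and without marrow mouse 3 it was -1.17 (adjusted p = 0.0681). The call also ended when only the 8 samples were fitted, without the spread of the other groups (adjusted p = 0.0679).

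Cd14, the co-receptor that hands bacterial lipopolysaccharide to the TLR4 complex, was the monocyte gene that rose. It stood at 52174, 55285, 97593, 59946 and 40183 in control cells and at 7615, 15922 and 5032 in marrow. The groups were well apart, and the log2 change of Cd14 was 2.68 (SE 0.36, adjusted p = 1.44e-06), or 3.27 without marrow mouse 2.

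The receptors of migration and growth factor did not pass. Ccr2, through which monocytes follow CCL2, stood at 82537, 137156, 71435, 69014 and 54844 in control cells and at 56092, 141507 and 125409 in marrow. The groups overlapped throughout, and the log2 fold change was -0.38 (95% interval -1.48 to 0.73, adjusted p = 0.628). Ccr2 passed as lower by DESeq2 with that method's size factors (-1.15, adjusted p = 0.0302). It also did so within the samples multiplied by about 4/3 (-0.93, adjusted p = 0.00284). Csf1r, the receptor for the macrophage growth factor CSF1, stood at 25461, 41643, 52775, 37019 and 23980 in control cells and at 10012, 44069 and 13362 in marrow. Marrow mouse 2 alone overlapped with the control range, and the log2 fold change was 0.69 (-0.32 to 1.69, adjusted p = 0.339). Without marrow mouse 2 Csf1r was higher, at 1.63 (adjusted p = 0.0165).

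Cx3cr1 stood at 586.8, 3144, 2447, 2309 and 412.4 in control cells and at 340.9, 4672 and 6323 in marrow. Both groups held low and high samples, and the log2 fold change of -1.09 had a 95% interval of -2.88 to 0.71 (adjusted p = 0.375). Ly6c1, one of the genes of the Ly6C antigens and a near copy of Ly6c2, ranged from 1437 to 36606 in control cells and from 5288 to 12384 in marrow. Control mouse 1 and 5 lay above all 3 marrow samples and control mouse 2, 3 and 4 below them, and the log2 fold change was 0.35 (-1.96 to 2.66). Fcgr1, the high-affinity IgG receptor CD64, had 0.78 (-0.06 to 1.62). Spi1, which encodes the myeloid master factor PU.1, had 0.61 (0.04 to 1.18, adjusted p = 0.0947), and Cebpb, a partner factor in myeloid cells, had 0.52 (-0.49 to 1.53). Without marrow mouse 2 Fcgr1 and Spi1 passed, at 1.43 and 0.91. Spi1 also passed without Gapdh in the scaling (0.74, adjusted p = 0.043) and by limma on log2 levels (0.68, adjusted p = 0.0419). With the replicate block over all samples Spi1 passed at 0.79 (adjusted p = 0.0311). The plot of monocyte genes shows each sample.

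**Figure D4:**
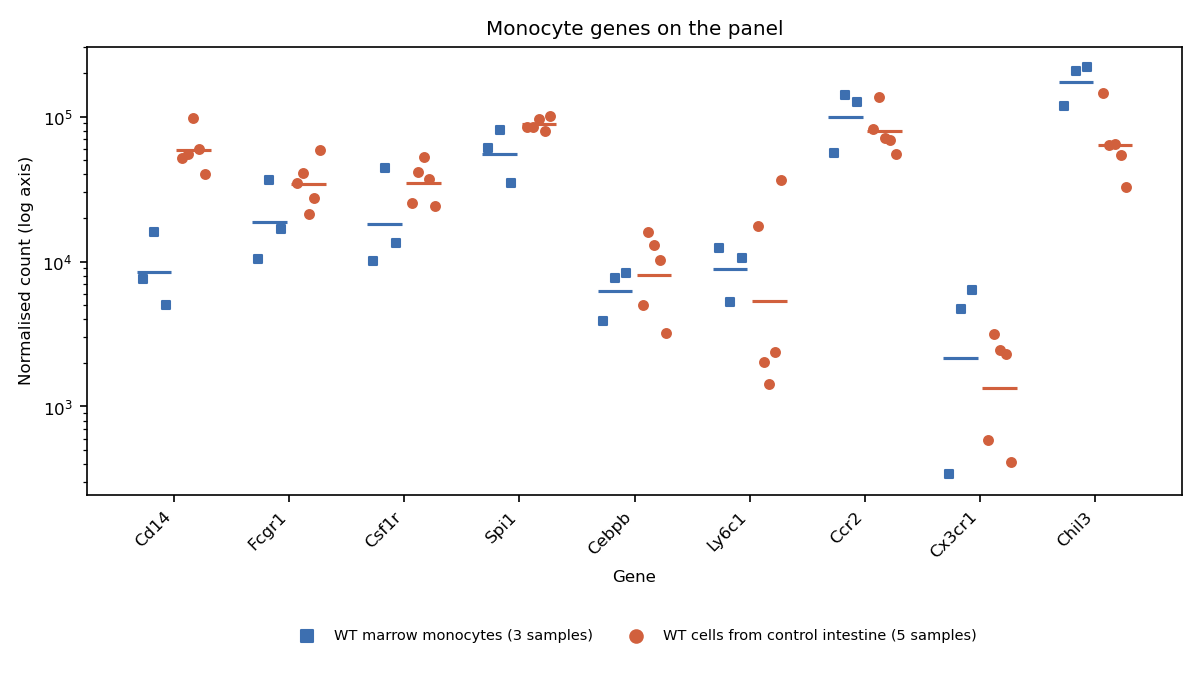
Normalised counts per sample (y axis, log scale) for monocyte identity genes (x axis), with a point for each mouse and a bar at the geometric mean of each group. Cd14 is separated upwards in control cells, Chil3 lies lower with 1 control sample among the marrow values, and Ccr2 overlaps throughout.

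Macrophage maturation genes had values for 14 of 16 on the panel. Of the 14, 5 were higher (against 30.9% of all 55 genes), none lower and 9 did not pass, with a median of 0.60. The 5 were Itgax, H2-Ab1, Cd86, Il10 and Tgfb1. Il10 encodes the anti-inflammatory cytokine of resident gut macrophages. It stood at 4885, 2553, 3958, 5051 and 1493 in control cells and at 1303, 1611 and 1320 in marrow, where it had the narrowest range of any gene. Only control mouse 5 lay among the marrow values, and the log2 change of Il10 was 1.35 (SE 0.37, adjusted p = 0.00621). That call ended with TMM (0.65, adjusted p = 0.164), DESeq2's size factors (0.40, adjusted p = 0.435), positive-control scaling (1.09) and the authors' values (0.60), and when only the 8 samples were fitted (adjusted p = 0.165).

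After scaling, Tgfb1, a cytokine of tissue repair and tolerance, ranged from 100867 to 124238 in control cells and from 70667 to 94862 in marrow, without overlap. Its log2 fold change of 0.51 (SE 0.18, adjusted p = 0.0297) lay below the panel median. It turned to -0.06 with TMM, -0.32 with DESeq2's size factors and -0.10 in the authors' values, so its direction rests on the scaling. Without control mouse 3, marrow mouse 1 or marrow mouse 3 the call ended, at 0.48, 0.43 and 0.45.

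The remaining maturation genes did not pass. Siglec1, the sialic acid receptor CD169 of macrophages, stood at 3837, 5568, 2216, 3033 and 28140 in control cells and at 285.9, 7799 and 127.2 in marrow, a 61.3-fold range that was the widest of any gene there. Its log2 fold change was 1.64 (95% interval -1.05 to 4.34), and without marrow mouse 2 it was 5.37 and passed (adjusted p = 0.0165). Mrc1, the mannose receptor CD206, had 0.41 (-1.15 to 1.96) and Il10ra, a chain of the interleukin-10 receptor, 0.23 (-1.15 to 1.61). Trem2, a lipid-sensing receptor of macrophages, had 0.10 (-1.16 to 1.36). The lysosomal Cd68 had -0.21 (-1.68 to 1.26) and Adgre1, which encodes the macrophage antigen F4/80, -0.77 (-2.51 to 0.97). Cd163 and Pparg were blank in every sample.

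Alternative activation and repair genes had values for 8 of 10. Of the 8, 4 were higher (against 30.9% of all 55 genes), 1 was lower and 3 did not pass, with a median of 0.46. Arg1 (NM_007482.3, positions 627 to 726), the arginase of alternatively activated macrophages, stood at 589.9, 385.7, 290.1, 224.2 and 4723 in control cells and at 62.0, 87.1 and 64.0 in marrow. All control samples lay above the marrow samples, and control mouse 5 was far above the other four. The fitted rise was 4.13 log2 units (SE 1.14, adjusted p = 0.00621), and without control mouse 5 it was 2.39 (adjusted p = 0.0349).

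Vegfa, the growth factor of blood vessels, stood at 681.1, 1715, 3311, 2280 and 391.7 in control cells and at 74.6, 484.3 and 116.1 in marrow. Control mouse 5 lay below marrow mouse 2, and the log2 change of Vegfa was 2.90 (SE 1.03, adjusted p = 0.0308). The call for Vegfa ended without control mouse 3, marrow mouse 1 or marrow mouse 3, at 2.49, 2.48 and 2.58, and without marrow mouse 2 the value was 4.13. Il10 and Tgfb1 were the other higher genes of this list, and Chil3 the lower one. Stat6, the factor that transmits interleukin-4 signals, had -0.26 (95% interval -0.75 to 0.24). Stat6 passed as lower with TMM (-0.89, adjusted p = 0.00655) and by DESeq2 with that method's size factors (-1.15, adjusted p = 2.42e-04).

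Pattern recognition and innate signalling genes had values for 9 of 10. Of the 9, 2 were higher (against 30.9% of all 55 genes) and 7 did not pass, with a median of 0.27. Besides Cd14 the higher gene was Nod2, the cytosolic sensor of bacterial muramyl dipeptide, which ranged from 2087 to 5956 in control cells and from 879.5 to 2189 in marrow. It rose by 1.34 log2 units (SE 0.46, adjusted p = 0.0275), and the call ended without control mouse 2 or 3 or marrow mouse 1 or 3, at 1.12, 1.24, 1.30 and 1.07. The Toll-like receptors Tlr1, Tlr4, Tlr2 and Tlr8 had log2 fold changes of 1.31 (95% interval -0.23 to 2.85), 0.50 (-0.27 to 1.27), -0.17 (-1.12 to 0.79) and -0.41 (-1.48 to 0.67). The adaptors Traf6 and Card9, which pass sensor signals on to NF-kappaB, had 0.27 (-0.55 to 1.09) and -0.54 (-1.13 to 0.04). Card9 passed as lower with TMM (-1.24, adjusted p = 0.0194), total counts (-0.95, adjusted p = 0.0161) and without Rpl19 in the scaling (-0.95, adjusted p = 0.0241). With DESeq2 and that method's size factors Card9 was also lower (-1.53, adjusted p = 0.0063).

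Of the 5 NF-kappaB and STAT factors with values, Nfkb2 alone passed (against 34.5% of all 55 genes). It encodes the precursor p100 of the alternative NF-kappaB pathway and ranged from 6829 to 22681 in control cells and from 3772 to 10889 in marrow. The fitted log2 difference was 1.07 (SE 0.36, adjusted p = 0.0255). The call ended without control mouse 3, marrow mouse 1 or marrow mouse 3, at 0.82, 0.91 and 0.79, and the value rose to 1.64 without marrow mouse 2. Nfkb1, of the classical pathway, had 0.18 (95% interval -0.47 to 0.84) and Relb, the partner of the Nfkb2 product, 0.51 (-0.60 to 1.61). None of the 5 myeloid transcription factors listed (Spi1, Cebpb, Relb, Irf5 and Irf4) passed, with a median of 0.51.

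Chemokine receptors and adhesion genes had values for 7 of 8. Of the 7, 1 (Itgax) was higher (against 30.9% of all 55 genes), 1 was lower and 5 did not pass. Their median of -0.43 was the only one below 0 among the lists. Itgb7, a chain of the gut-homing integrin, had -0.43 (95% interval -1.12 to 0.26), and Ccr9, the gut-homing chemokine receptor, had -0.70 (-2.15 to 0.75). Itgb7 passed as lower with TMM (-1.08, adjusted p = 0.045). By DESeq2 with that method's size factors both passed as lower, Itgb7 at -1.33 (adjusted p = 0.0155) and Ccr9 at -1.53 (adjusted p = 0.0213). Cd44, a hyaluronan receptor on no list, had -0.04 (-1.62 to 1.54). Cd86 lost its call without control mouse 3, marrow mouse 1 or marrow mouse 3, at 1.30, 1.22 and 1.74. Calls that held whichever of the 8 samples was left out, with the housekeeping scaling kept, were those of Itgax, Il1a, Il1b, Cxcl9, H2-Ab1, Arg1, Cd14, Ccl7, Ccl2, Cd80 and Il10.

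The same contrast was set up in Trem1-/- cells from other mice, 5 control recipients of C57BL/6 Trem1-/- donor monocytes and 3 Trem1-/- marrow samples. Trem1 encodes an activating receptor that amplifies inflammatory signals in myeloid cells. There too 19 of 55 genes passed (34.5%), with 17 higher (30.9%) and 2 lower (3.64%). The 17 shared 14 genes with those of WT, or 82.4% of each list, and both lower genes were the same, with Chil3 at -1.16. Itgax had a log2 fold change of 6.49, Il1a of 7.09, Il1b of 5.11 and Cxcl9 of 4.68 in Trem1-/- cells. Arg1, Ccl22 and Nfkb2 passed in WT and not in Trem1-/- cells, and Ccr7, Cxcl10 and Tnf the other way round. For none of these 6 did the difference between the genotypes itself pass (adjusted p = 0.956 for each).

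The difference between the genotypes passed for 1 gene of 55 (1.82%), H2-Ab1. Its log2 fold change was 9.79 in Trem1-/- cells against 4.75 in WT, a difference of -5.04 (SE 1.33, adjusted p = 0.0458). The Trem1-/- marrow samples stood at 151.7, 80.2 and 76.4 normalised counts and the Trem1-/- control cells at 58646 to 141109, so that the genotypes lay apart in marrow and overlapped in the intestine. Without marrow mouse 2 of WT the difference was -3.49 (adjusted p = 0.60). The call held in 3 of 16 fits that left out 1 sample, those without WT marrow mouse 1 or 3 or Trem1-/- control mouse 2, and the value ran from -5.60 to -3.49 over the 16. Over all 36 alternatives it held in 14, with values from -6.54 to -2.82. The positive control probes gave 797.0 to 1783 counts in the Trem1-/- control samples and 527.2 to 729.3 in those of WT, which did not overlap, and 861.4 to 1228 against 517.3 to 943.7 in the marrow samples. Their part in the result was not tested.

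**Figure D5:**
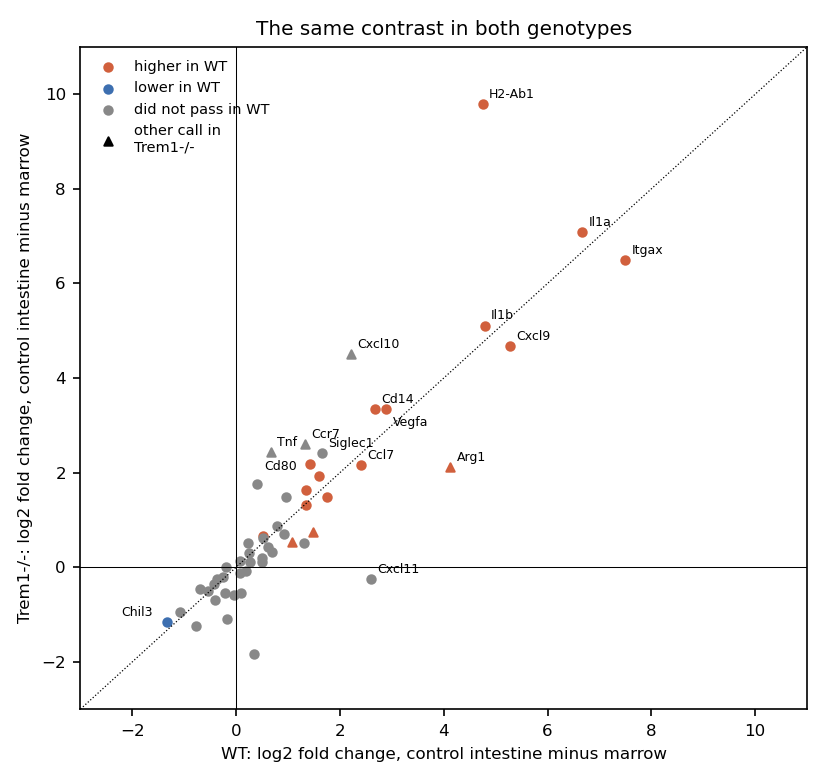
Log2 fold change of control cells minus marrow monocytes in WT (x axis) and in Trem1-/- cells (y axis), a point for each gene described here, with the line of equal change. H2-Ab1 lies above the line at 4.75 in WT and 9.79 in Trem1-/- cells.

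WT cells recovered at day 1 from intestine inflamed by surgical manipulation 1 day before the transfer, from 5 recipients with the same donor strain and host genotype, were set against the same 3 marrow samples. The comparisons share those samples, so their values are given side by side and were not tested against each other. In the inflamed intestine 27 of 55 genes passed (49.1%), with 20 higher (36.4%) and 7 lower (12.7%). Itgax had a log2 fold change of 5.12 there and 7.50 in control cells, H2-Ab1 2.67 and 4.75, and Cxcl9 0.70 and 5.27. Il1a had 10.74 there and 6.67 in control cells, Arg1 10.25 and 4.13, Ccl7 9.42 and 2.40, and Ccl2 4.56 and 1.76. Among the monocyte genes Ccr2 had -2.10 there and -0.38 in control cells, and Cx3cr1 -4.78 and -1.09.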

How the data were processed

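WT samples of the control intestine (5) and the bone marrow (3) were compared on 55 genes of an nCounter panel (NanoString). RNA of sorted cells was reverse-transcribed and pre-amplified with multiplexed target enrichment primers, per the labels' protocols. The authors deposited barcode counts, whole in 15 of 28 samples, 1 of which held only multiples of 2 and was divided by 2. For the 13 remaining samples the authors deposited expected counts, each a whole number times 1.33 (8 samples) or 1.333 (5). Each multiplier was the first tried that made all values of the sample whole within 0.0001. That 100.0% of values became whole follows from this choice and is no separate check. The deposited normalised table is a score of unstated unit, used as an alternative. Counting software is not given in the sources used here. Every column of per-sample values was used.

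Scaling used the housekeeping genes (geometric mean of Actb, Gapdh, Rpl19). edgeR 4.0.16 (glmQLFit, glmQLFTest, R 4.3.3) was fitted to all 28 samples with 1 coefficient per group, over the 55 genes above background in at least 3 samples. limma 3.58.1 and DESeq2 1.42.0 served as alternatives. Exact permutation tests and figures used scipy 1.17.1, matplotlib 3.10.9, numpy 2.4.6 and pandas 2.3.3 under Python 3.11.15. On simulated counts of the 55 genes the WT comparison recovered 14.6% of changes of log2 size 1, 73.6% of size 2 and 91.5% of size 3. Those counts were drawn from mean levels over all 28 samples, with 10 genes changed in random directions and the scaling known. The shares therefore do not cover low marrow counts, changes mostly in 1 direction or error of the scaling.

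Samples of the same group were not copies of one another: a chi-square test of their counts gave at least 821.8 per degree of freedom. The labels do not say that samples are separate mice beyond their numbering, so p-values measure the spread between samples. Targets with values in both groups are named, except that results of some genes are not reported here, although all 55 entered the fits and counts. Values in every sample are given for the 12 called genes with the largest change in each direction, for Ccr2, Csf1r, Cx3cr1 and the housekeeping genes, and were added for Il10, Siglec1, Cxcl10 and Cxcl11 after their values were seen. The genes, lists and tests were chosen with earlier results of these data known. Of 72 transcript identifiers, 69 matched RefSeq. Trem1 and Retnla were blank in marrow, and 12 targets were blank in every sample.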

Additional observations from a re-analysis of the deposited data

Results flagged for a closer look

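In 8 of 58 genes examined in WT control cells, 1 sample lay farther from the others than Dixon's critical value allows. The 58 include the housekeeping genes, Trem1 and Retnla. Dixon's test was run on normalised counts and not on their logarithms. Chance gives about 5% of such tests only where values are normally distributed. That was not tested, so 8 of 58 cannot be set against this rate. Control mouse 5 accounted for 4 of the 8. Its Arg1 stood at 4723 normalised counts (others 224.2 to 589.9), its Ccl7 at 442.2 (71.3 to 115.8) and its Siglec1 at 28140 (2216 to 5568). Its Il6 was low, at 41.4 (69.6 to 75.6), but its 32 raw counts lay below that sample's background limit of 34.2. Control mouse 1 stood at 144900 for Chil3 (32556 to 64290), control mouse 3 at 32538 for Card9 (20598 to 23841) and control mouse 2 at 265.0 for Mrc1 (69.6 to 113.0). Control mouse 4 stood at 7358 for Retnla, which encodes the resistin-like molecule of alternatively activated macrophages (37.3 to 68.5 in the others). Control mouse 5 also had the lowest level of the 5 samples for 31 of 55 genes.

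H2-Ab1 differed between the genotypes by -5.04 on the log2 scale in the difference of control cells and marrow (adjusted p = 0.0458 by edgeR).

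Values of 2 genes had no counterpart in marrow, where the deposited cells were blank. Trem1 reached 3176 normalised counts in control mouse 3, with a lowest value of 301.2 and a median of 740.2 over the 5 control samples. Retnla reached 7358 in control mouse 4.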

How the results depend on the processing

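Of the 19 calls, Il1a and Il1b held under all 28 alternatives and Itgax under all 27 that tested it. Over the called genes, 415 values kept call and direction, 112 kept the direction and lost the call, and 3 turned sign. Those 3 were Tgfb1, at -0.057 with TMM, -0.32 with DESeq2's size factors and -0.10 in the authors' values. Of the genes not called, 20 were called under at least 1 alternative without a change of sign, and Irf5, which turned from 0.08 to -0.80 with DESeq2's size factors, was another. The number of higher genes moved from 17 to 11 with TMM, 9 with positive-control scaling, 6 in the authors' values, and 8 when only the groups compared were fitted, where those 8 (Itgax, Il1a, Il1b, H2-Ab1, Cxcl9, Arg1, Cd14 and Ccl7) were all among the 17. The number of lower genes moved from 2 to 5 with TMM, 4 with total counts, 13 with DESeq2's size factors, 1 without Actb or without Gapdh in the scaling, and 0 when only the groups compared were fitted or within the unscaled samples. The median shift of all genes under each scaling accompanies these counts in the report, and the cause was not tested. Leaving out 1 sample gave 11 to 23 higher genes and 1 to 2 lower ones. The 11 came without marrow mouse 1 or 3 and the 23 without marrow mouse 2. Within the unscaled samples (control mouse 1, 2 and 5 and marrow mouse 1) 12 genes were higher. That fit has a single marrow sample, 1 of the 2 that stood apart, which is assumed to vary like the other groups. Within the samples multiplied by about 4/3, 14 were higher and 3 lower. Blocking on the multiplier class gave 21 and 2, where Csf1r, Fcgr1, Cxcl1 and Tlr1 joined the higher genes.

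Replicate numbers were not shown to pair the samples. Same-numbered samples deviated together with correlations of 0.35, 0.06 and -0.01, and 1 of 3 marrow samples correlated best with its own number. These correlations were not set against values for unpaired samples, so they cannot exclude a pairing. With the replicate block over all samples 14 genes were higher and 2 lower, and with the replicate block over mice 1 to 3 of the groups compared 5 were higher and 0 lower. The genotype difference, called for 1 gene, was called for 0 with either replicate block. It was called for 0 genes under TMM, total counts, positive controls, limma, the authors' values, the multiplier block and within the unscaled samples, for 4 within the multiplied samples, and for 0 to 1 when 1 sample was left out. At an unadjusted p under 0.05 the edgeR fit held 2 genes for it. Targets near background (Il6 and Ccl7, and Itgax in marrow) are limited by signal over background, and leaving them out gave 15 higher and 2 lower of 52 genes.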

Other observations

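The 5 control samples and the 3 marrow samples were about equally spread. The median SD of log2 levels over the 55 genes was 0.67 in control cells and 0.77 in marrow monocytes, and the marrow SD was the larger in 36 genes. Among the 55 genes, Tgfb1 was the steadiest in control cells, with the highest sample 1.23-fold above the lowest, and Il10 the steadiest in marrow, at 1.24-fold. Chil3 took 2.30% to 10.9% of all gene counts of a control sample and 14.05% to 21.2% of those of a marrow sample.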
